A study of Mus musculus with 8 samples.

Results

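The cytosolic ribosomal protein genes were followed in mouse bone marrow-derived macrophages labelled WT or NIK KO. NIK is the kinase of the noncanonical NF-kB pathway and is encoded by Map3k14. A gene was a member if its symbol began with Rpl or Rps and a number, or was Rplp0, Rplp1, Rplp2, Rpsa or Fau, and it had a row in both deposited tables. Symbols with -ps and the Rps6k kinases were left out. The rule found 90 genes of the 13384 that had a row in both tables (13676 in the PBS table and 14193 in the IL-4 table). Of these, 52 were named for the large subunit and 37 for the small subunit. The remaining gene, Rps19bp1, encodes a protein that binds Rps19 and is not part of the ribosome. Another 11 members were paralogs or retrocopies of a standard gene: Rpl22l1, Rps27l, Rps27rt, Rpl37rt, Rpl39l, Rpl36al, Rpl6l, Rpl7l1, Rps4l, Rps3a2 and Rps3a3. The other 78, 46 large and 32 small, are called the core genes below. The symbol rule did not reach Rack1, a small subunit protein.

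The groups were WT and NIK KO macrophages from female mice aged 12 weeks, given PBS or 20 ng/mL IL-4 for 6 hours. Marrow cells had been grown for 7 days with 30% supernatant of L929 cells, a source of M-CSF, and were replated in 5% of it before treatment. Each of the 4 groups had 2 libraries, and the mouse numbers in the labels show the same 4 mice, 2 per genotype, behind both treatments. The labels do not state which part of the gene was removed, the promoter of any Cre or the strain. The deposited files hold 1 value per gene for each of 2 comparisons, NIK KO against WT with PBS and with IL-4. No value per library could be shown, the depth of the libraries is unknown, and whether the libraries of the 2 genotypes overlapped for a gene could not be seen. The normalized counts given for a group were recovered from the deposited base mean and fold change, with both genotypes weighted equally, and carry no error of their own.

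Map3k14 itself had more counts where the label says NIK KO. In the authors' deposited table its log2 fold change was 1.09 ± 0.28 (SE) with PBS and 0.99 ± 0.22 with IL-4, from 425 to 902 and from 418 to 832 normalized counts. The DESeq2 adjusted p was 0.176 and 0.00782. The direction, NIK KO over WT, is read from how the IL-4 table is named and was applied to both, and the reading of Map3k14 does not check it. With the ratio turned, Map3k14 would go from 902 counts in WT to 425 in NIK KO with PBS and from 832 to 418 with IL-4, and every sign below would reverse. The files used here do not settle which reading holds, so each direction below is given as read from the table's name. Macrophage markers were abundant in both tables: all 14 macrophage markers had a row, with Lyz2 at a base mean of 517389 with PBS and 344144 with IL-4, and Csf1r at 45275 and 61955. Itgam stood at 74.3 with PBS and 20144 with IL-4.

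The ribosome is assembled in the nucleolus from ribosomal RNA and about equal amounts of each of its proteins, and proteins made in excess are degraded. Most ribosomal protein mRNAs start with a short run of pyrimidines, the 5' terminal oligopyrimidine tract, through which mTORC1 and Larp1 set their translation. The mRNAs are short and among the most abundant of any cell, and their genes have given rise to many processed pseudogenes whose sequence is nearly that of the parent.

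No ribosomal protein gene passed the deposited test between genotypes. With PBS, 0 of 90 members had an adjusted p under 0.05 (DESeq2 Wald test with Benjamini-Hochberg adjustment over the table), against 0.0366% of all 13676 genes. With IL-4, 0 of 90 passed, against 0.125% of the 13642 genes that had an adjusted p. At an unadjusted p under 0.05 there were 0 members with PBS, against 1.24% of genes in either direction and 0.702% of all genes called lower. With IL-4 there were 3, all lower in the libraries labelled NIK KO, against 2.95% of genes in either direction and 1.32% of all genes called lower. These were Rpl36a, Rpl22 and Rpl13a.

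The small values lay differently about 0 with the 2 treatments. With PBS the members lay on both sides of 0: the median log2 fold change was -0.01, 47 of 90 were below 0, against 51.7% of all genes, and the median standard error of a member was 0.27. With IL-4 the median was -0.18 and 87 of 90 were below 0, against 51.1% of all genes, whose median was -0.01. The median standard error with IL-4 was 0.17, so a typical member lay about 1 standard error below 0, and 42 members had a Wald statistic under -1. The members above 0 with IL-4 were Rpl5 at 0.11 ± 0.22, Rpl7l1 at 0.07 ± 0.17 and Rpl39l at 0.13 ± 1.33 in the authors' deposited table. Among the 78 core genes, 42 were below 0 with PBS and 77 with IL-4. All of these genes are measured in the same libraries, so a shift of the libraries moves them together, and the count of genes on a side is not a count of independent observations.

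**Figure D1:**
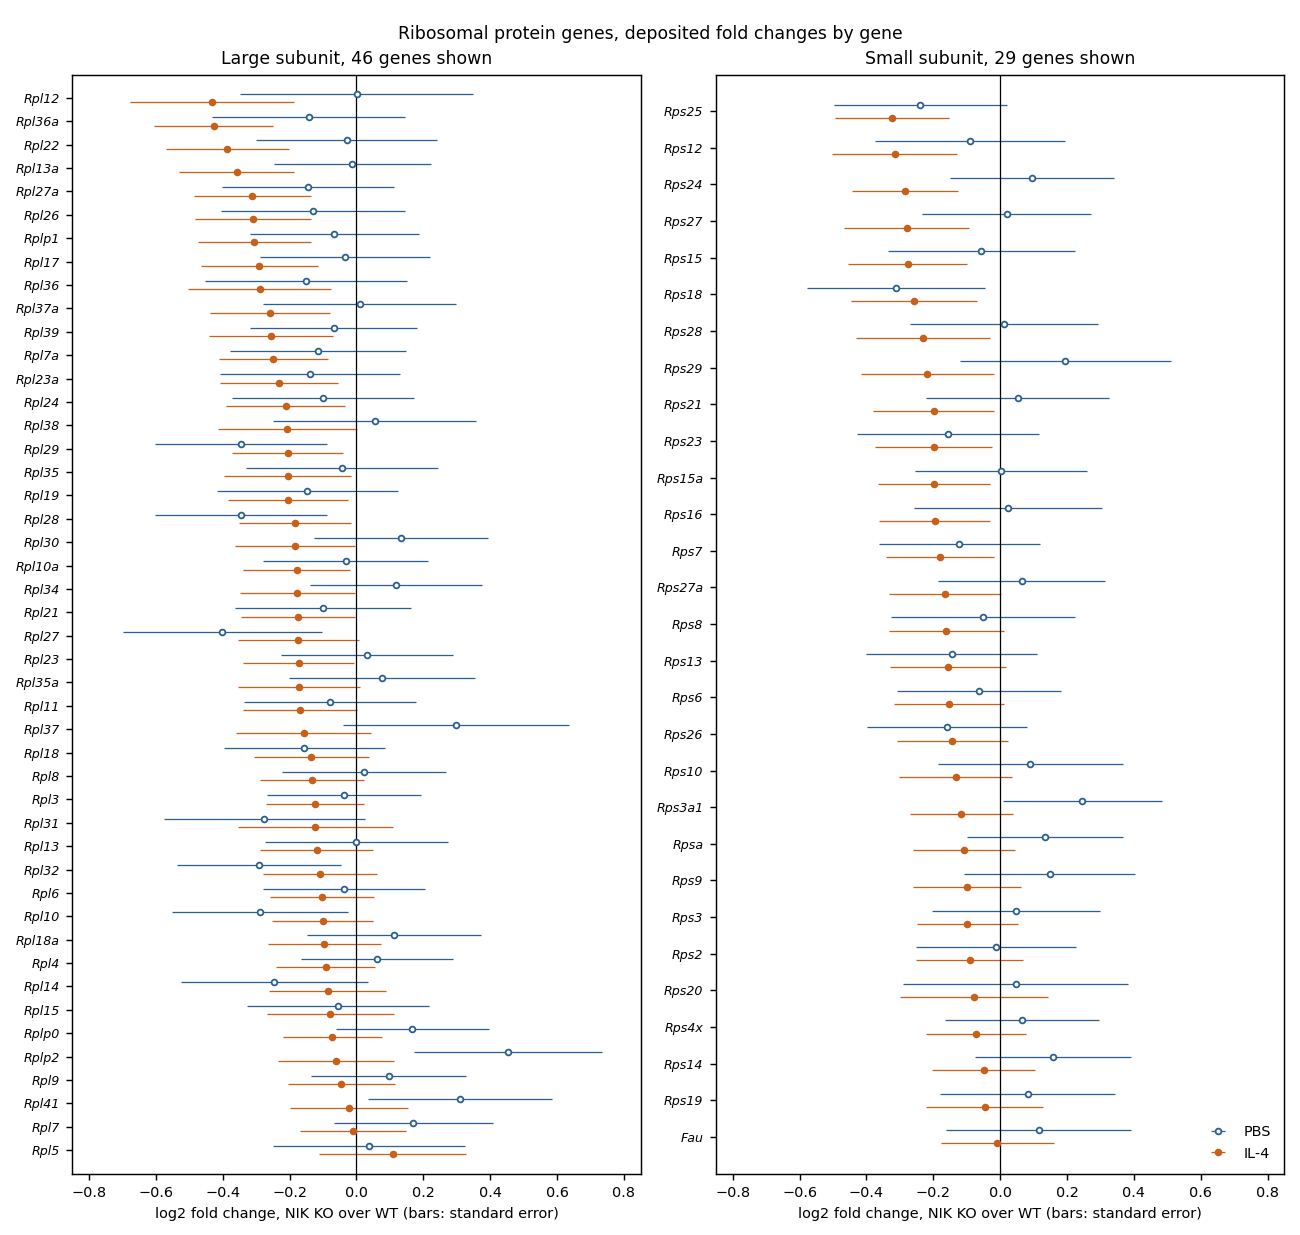
Log2 fold change of NIK KO over WT (x axis) for 75 of the 78 core genes, large subunit on the left and small subunit on the right, with PBS (open points) and IL-4 (filled points) and bars of 1 standard error as deposited. The PBS points lie on both sides of 0, while all IL-4 points but Rpl5 lie below it and they are spread less widely than the PBS points.

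With IL-4 the fold changes of other genes differed by transcript length. Among genes that are no members and had a base mean of 100 or more, the 712 with a transcript under 1 kb had a median of -0.19 with IL-4, and 82.2% of them were below 0. With these genes put in 5 groups of equal size by length, the 1887 shortest had a median of -0.12 with IL-4 and the 1884 longest one of 0.13. With PBS the shortest and longest groups stood at -0.03 and 0.02. Of the core genes, 61 had a transcript under 1 kb, with an IL-4 median of -0.18 and 61 of 61 below 0. The other 17 had a median of -0.10 and 16 of 17 below 0. Beside them, the 8706 non-member genes of 1 kb or more with a base mean of 100 or more had an IL-4 median of 0.03. Of these non-member genes, 43.9% were below 0. When the trend of fold change on transcript length over all genes was subtracted, the median of the 90 members with IL-4 went from -0.18 to -0.03 and 55 of 90 were below 0. For the core genes the median became -0.02, with 48 of 78 below 0. Genes of high level were not lower: those of base mean 2000 or more outside the list had a median of 0.06 with IL-4. Subtraction of the trend on base mean gave the members -0.21.

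**Figure D2:**
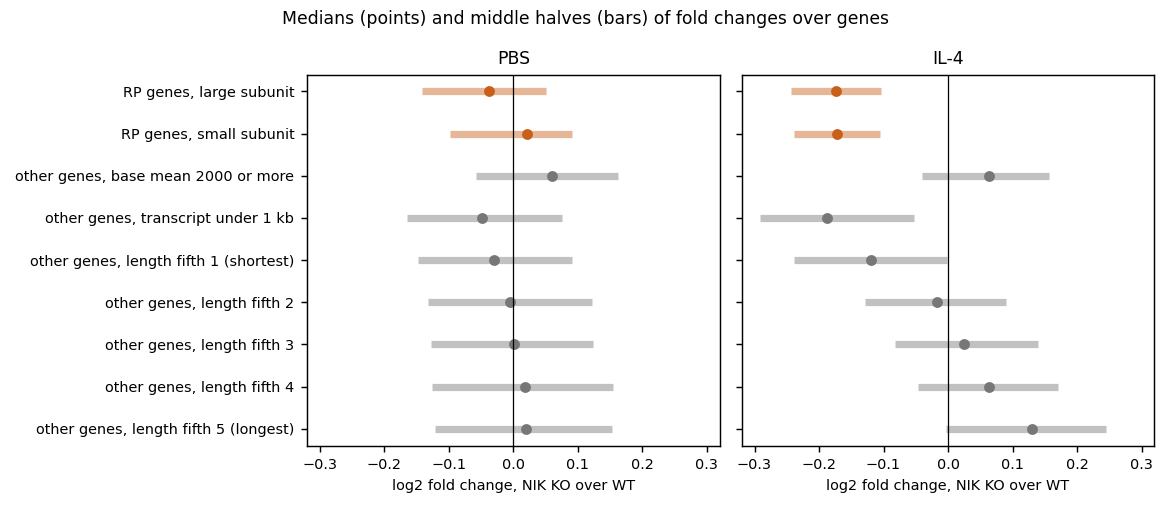
Median log2 fold change of NIK KO over WT (points) and the range of the middle 50% of genes (bars) with PBS and IL-4, for core ribosomal protein genes (RP) and for other genes by level and by transcript length. With IL-4 the medians of the other genes run from -0.12 in the shortest of 5 length groups to 0.13 in the longest, and the ribosomal protein genes lie beside the other genes under 1 kb.

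In share of the transcriptome, the 90 members made up 3.63% of the summed normalized counts in WT and 3.54% in NIK KO with PBS. With IL-4 they made up 3.60% in WT and 3.16% in NIK KO, or 3.16% in WT and 3.60% in NIK KO if the ratio is turned. The shares within a group do not depend on the scaling between tables, which were normalized separately. Large subunit genes took 2.03% and 1.96% with PBS and 2.04% and 1.79% with IL-4. The small subunit took 1.59% and 1.58% with PBS and 1.56% and 1.37% with IL-4. Over the 46 large and 32 small core genes alone, the ratio of large to small stood at 1.25 and 1.22 with PBS and at 1.29 and 1.28 with IL-4.

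Large and small subunit genes had the same median with IL-4 to 2 decimals and a lower one for the large subunit with PBS. With IL-4 the median was -0.17 for the 46 large and -0.17 for the 32 small core genes, with SDs between genes of 0.11 and 0.09, and 45 of 46 and 32 of 32 were below 0. With PBS the medians were -0.04 and 0.02, with SDs of 0.17 and 0.14, and 29 of 46 and 13 of 32 were below 0. The PBS difference of medians, -0.06, was not tested.

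The difference between the treatments was tested gene by gene, as the IL-4 fold change minus the PBS fold change over their combined standard error (two-sided normal test, Benjamini-Hochberg over 13384 genes, errors taken as independent although the mice are shared). No member passed, 0 of 90, against 0.0149% of all genes, and 0 of 90 had an unadjusted p under 0.05, against 0.867%. The median difference was -0.18 and 78 of 90 were below 0, against 50.2% of all genes. The value farthest from 0 in standard errors was that of Rplp2, at -0.51 ± 0.33, or 1.55 standard errors below 0. Rps24 followed at -0.38 ± 0.29, Rps3a1 at -0.36 ± 0.28 and Rpl13a at -0.35 ± 0.29. At the other end, Rpl27 stood at 0.23 and Rpl10 at 0.19. Summed with the copies described below, the PBS and IL-4 values were -0.26 and -0.17 for Rpl27 and -0.01 and -0.08 for Rpl10, so the sign of the Rpl10 difference turned. Across the 78 core genes the PBS and IL-4 fold changes had a Pearson's r of 0.36 and a Spearman's rho of 0.42. This describes genes that share libraries, mice and scaling, and genes are not independent replicates.

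**Figure D3:**
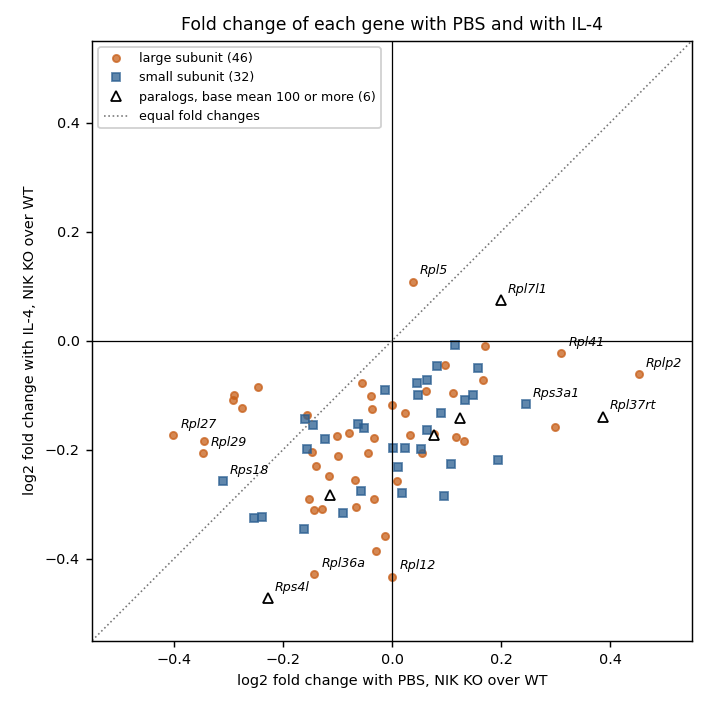
Log2 fold change with IL-4 (y axis) against that with PBS (x axis) for the 46 large and 32 small core genes and the 6 paralogs with a base mean of 100 or more in both tables. The points spread from -0.40 to 0.45 along the PBS axis and lie almost all below 0 on the IL-4 axis.

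The members with the largest Wald statistics with IL-4 came from several places in the ribosome. Rpl36a, which lies near the exit site for tRNA, had a mean of 2892 normalized counts in WT against 2150 in NIK KO, which is a log2 fold change of -0.43 ± 0.18 (authors' deposited table, unadjusted p = 0.0169, adjusted p = 1.00 by the DESeq2 Wald test). Rpl22, an RNA-binding protein of the large subunit that mice can lack in most tissues, had 3352 and 2564 counts, or -0.39 ± 0.18 in the authors' deposited table. Rpl13a, which can leave the ribosome and silence inflammatory mRNAs in interferon-treated myeloid cells, had 21543 and 16801 counts, or -0.36 ± 0.17. With PBS these 3 genes stood at -0.14 ± 0.29, -0.03 ± 0.27 and -0.01 ± 0.24 in the authors' deposited table. For each gene the IL-4 and PBS values therefore lay within the sum of their standard errors. Summed with its copy, Rpl36a stood at 0.04 with PBS.

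Rps25, a small subunit protein known for its need in initiation from internal entry sites, had 8811 and 7039 counts with IL-4, or -0.32 ± 0.17 in the authors' deposited table. Rps24 and Rpl26, genes in which mutations cause Diamond-Blackfan anaemia in people, stood at -0.28 ± 0.16 and -0.31 ± 0.17. Rplp1 and Rpl27a stood at -0.31 ± 0.17 and -0.31 ± 0.18. The Wald statistics of these 8 genes ran from -2.39 to -1.77, and none passed the adjustment over all genes. Rpl12, which sits at the base of the stalk, stood at -0.43 ± 0.25 on a base mean of 582, the lowest IL-4 value among core genes taken alone. With IL-4 93.9% of its family's counts were listed under copies, and summed with them it stood at -0.29, above Rpl22 at -0.39.

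With PBS the largest statistics pointed both ways. Rplp2, a stalk protein, was the highest, with 3389 counts in WT and 4637 in NIK KO, or 0.45 ± 0.28 (authors' deposited table, unadjusted p = 0.108, adjusted p = 1.00 by the DESeq2 Wald test). Rpl41, a very small protein at the bridge between the subunits, stood at 0.31 ± 0.28 and Rps3a1 at 0.25 ± 0.24. Lower were Rpl27 with 5703 and 4318 counts, or -0.40 ± 0.30, Rpl29 at -0.35 ± 0.26, Rpl28 at -0.34 ± 0.26, Rps18 at -0.31 ± 0.27, Rpl32 at -0.29 ± 0.24 and Rpl10 at -0.29 ± 0.26 in the authors' deposited table. No value lay 2 standard errors from 0. Summed with their copies, Rpl27 stood at -0.26, Rpl28 at -0.20 and Rpl10 at -0.01 with PBS. These sums carry no error. Of the copies added, Rpl27-ps3 and Gm11518 each stood at 2.16 ± 3.27 with PBS, and neither had a row with IL-4. Rpl28-ps1 stood at 0.87 ± 0.92 and Rpl10-ps3 at 0.17 ± 0.26 with PBS.

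The 3 proteins of the stalk, the arm of the large subunit that recruits elongation factors, had different values although they act as one complex. With PBS Rplp0 was at 0.17 ± 0.23, Rplp1 at -0.07 ± 0.25 and Rplp2 at 0.45 ± 0.28 in the authors' deposited table. With IL-4 they were at -0.07 ± 0.15, -0.31 ± 0.17 and -0.06 ± 0.17. The gaps between them were not tested. Of the proteins made as fusions, Rps27a, released from ubiquitin, stood at 0.06 ± 0.25 with PBS and -0.16 ± 0.17 with IL-4 in the authors' deposited table. Fau, released from a ubiquitin-like protein, stood at 0.12 ± 0.28 and -0.01 ± 0.17. Rpsa, also known as a precursor of the laminin receptor, stood at 0.13 ± 0.23 and -0.11 ± 0.15. Rack1, outside the symbol rule, stood at 0.10 ± 0.23 with PBS and 0.03 ± 0.15 with IL-4 in the authors' deposited table. Rps3, whose product also binds the NF-kB subunit RelA, was at 0.05 ± 0.25 and -0.10 ± 0.15.

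The 4 members on the X chromosome, Rpl10, Rpl36a, Rpl39 and Rps4x, had medians of -0.11 with PBS and -0.18 with IL-4, beside -0.02 and -0.17 for all core genes. Rps19bp1 stood at -0.15 ± 0.36 with PBS and -0.35 ± 0.27 with IL-4 in the authors' deposited table.

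Levels between genes were compared per kb of transcript, as base mean divided by the length of the shortest principal transcript. With IL-4 the highest were Rplp1 at 19616 per kb, Rps14 at 19460, Rpl13a at 18311, Rps3a1 at 16356 and Rps2 at 15848. With PBS they were Rplp1 at 18200, Rps14 at 17861, Rps9 at 15456, Rps12 at 15282 and Rpl13a at 15015. Rplp1 and Rps14 thus led both tables. The lowest core genes were Rpl5 at 207 per kb with PBS and 253 with IL-4 and Rpl12 at 384 and 468, although a ribosome holds their products in the same number as most others. Rpl5 and Rpl12 are the genes most affected by the listing of reads under copies, described below. The principal transcript of Rpl5 used here, 2045 bases, is long for its family, and that of Rps20, 3706 bases, is longer. The split of core genes at 1 kb above rests on the same choice of transcripts. Over the core genes the base means of the 2 tables, which were normalized separately, had a Pearson's r of 0.98.

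The gene starts were read for the pyrimidine run and for motifs of promoters of this family. RefSeq promoters (GRCm38.p6, 250 bases before the start and 50 after it, first listed start of a gene) matched 58 of the 78 core genes and 7 of the 11 paralogs. Within 10 bases before to 50 bases after the start, 45 of 58 core genes (77.6%) had an unbroken run of at least 7 C or T, against 28.8% of all 10478 promoters of genes in the tables. A run of at least 10 was found in 60.3% against 8.58%. The windows below are 30 bases each, written 5' to 3' along the gene's strand. Capitals mark the longest run within the searched bases, from 10 before to 50 after the start. A run that reached the edge of those bases was cut there. In Rps27l and Rpl22 the C or T directly before the capitals therefore went uncounted. The run of Rps24 ended at the last searched base, and what follows it was not read. The windows show members with the largest statistics with IL-4 and PBS, and the paralog pairs Rpl22 and Rpl22l1, and Rps27 and Rps27l. Rpl27a is among them and had the longest run counted within the searched bases. The run of Rpl7a, not shown, was counted as 17 and cut at the edge, with further C and T directly before it. Its full length was not compared, so the rank of Rpl27a holds only within the searched bases.
Rpl36a (chrX:134585672-134585701, + strand): cggctctagCCTCTCTCTTTCCgagctgct
Rpl13a (chr7:45128722-45128751, - strand): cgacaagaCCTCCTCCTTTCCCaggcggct
Rpl27a (chr7:109519186-109519215, + strand): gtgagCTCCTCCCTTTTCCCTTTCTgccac
Rpl26 (chr11:68901579-68901608, + strand): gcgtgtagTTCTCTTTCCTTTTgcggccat
Rps24 (chr14:24490698-24490727, + strand): ttggtcggcagtgagcggTCCTCTTTTCCT
Rps25 (chr9:44407727-44407756, + strand): tggtctacacgaCTCTCTgagcttcgccat
Rplp2 (chr7:141447636-141447665, + strand): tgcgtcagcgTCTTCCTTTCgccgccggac
Rpl27 (chr11:101442225-101442254, + strand): ccggaacgctctgTTCCTgtctgctgctcg
Rpl22 (chr4:152325702-152325731, + strand): acagccgacttcgcCCTgggaaaagcaata
Rpl22l1 (chr3:28805499-28805528, + strand): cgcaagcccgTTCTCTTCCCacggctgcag
Rps27 (chr3:90213632-90213661, - strand): ttccgctttcgCTCCTTTCCggcggtgacg
Rps27l (chr9:66946064-66946093, + strand): ctcctctccactCCTCCCCgccgcctctat
The run of Rpl27a was 20 bases long, those of Rpl13a and Rpl26 14 and that of Rpl36a 13. Rpl22 had none over 3 within the searched bases of its first listed start, where its run was cut at the edge. Its paralog Rpl22l1 had one of 10. Medians with and without the run were close. The 45 core genes with a run of 7 or more had medians of -0.01 with PBS and -0.17 with IL-4, with 44 of 45 below 0 with IL-4. The 13 with shorter runs had medians of -0.00 and -0.18, with 13 of 13 below 0.

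Of the motifs searched on both strands of the 300 bases, CCGGAAG, a core of ETS family sites, was in 39.7% of the 58 core promoters and in 17.7% of all promoters. AAGATGGC, the YY1 core, was in 8.62% and 4.60%, GGGCGG, a GC box, in 60.3% and 62.7%, and TATAAA in 8.62% and 7.38%. CCGGAAG and AAGATGGC can share the letters AAG, and no motif of the search contains another. The 23 core genes with CCGGAAG had an IL-4 median of -0.16 and the 35 without it -0.18. The motifs and the run length were chosen after the sequences had been seen, and a match is a description of letters, not a site.

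Of the 11 paralogs and retrocopies, 6 had a base mean of 100 or more in both tables, and 5 were annotated as pseudogenes (Rps3a2, Rps3a3, Rpl6l, Rps4l and Rpl37rt). None passed the test in either table. Rpl22l1, which can take the place of Rpl22 and is known to be repressed by it, had 1027 counts in WT and 1082 in NIK KO with PBS and 1277 and 1132 with IL-4. Its fold changes were 0.08 ± 0.26 and -0.17 ± 0.19 in the authors' deposited table, beside -0.03 ± 0.27 and -0.39 ± 0.18 for Rpl22. Both genes of the pair were lower with IL-4, and their values lay within their errors of each other. Rps27l, a p53 target that differs from Rps27 at few residues, stood at 0.12 ± 0.28 and -0.14 ± 0.19 in the authors' deposited table, beside 0.02 ± 0.25 and -0.28 ± 0.19 for Rps27. Its level, 1221 counts in WT with PBS, compares with 2652 for Rps27, whose transcript is shorter.

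Rpl36al was at -0.11 ± 0.28 and -0.28 ± 0.19 in the authors' deposited table, beside -0.14 ± 0.29 and -0.43 ± 0.18 for Rpl36a. The pair were thus among the lower members with IL-4, and Rpl36al, at 3300 counts in WT with IL-4, was listed no lower than Rpl36a at 2892. Rpl7l1, named for Rpl7 but known as an assembly factor of the large subunit, stood at 0.20 ± 0.24 and 0.07 ± 0.17 in the authors' deposited table, beside 0.17 ± 0.24 and -0.01 ± 0.16 for Rpl7. Rpl37rt stood at 0.39 ± 0.35 and -0.14 ± 0.29, beside 0.30 ± 0.34 and -0.16 ± 0.20 for Rpl37, and Rps4l at -0.23 ± 0.52 and -0.47 ± 0.42, beside 0.06 ± 0.23 and -0.07 ± 0.15 for Rps4x. Paralogs and their parents share sequence, and reads may have been assigned to either.

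The other 5 were near the floor of the tables. Rpl39l, a paralog of Rpl39 best known from the male germ line, had a base mean of 6.87 with PBS and 8.37 with IL-4, Rpl6l 5.97 and 8.52, Rps3a2 24.2 and 17.5, and Rps3a3 14.2 and 36.7. Rps27rt had a base mean of 41.2 and 48.1, with a log2 fold change of -2.44 ± 2.53 with IL-4 in the authors' deposited table. No direction can be read from values of this size.

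**Figure D4:**
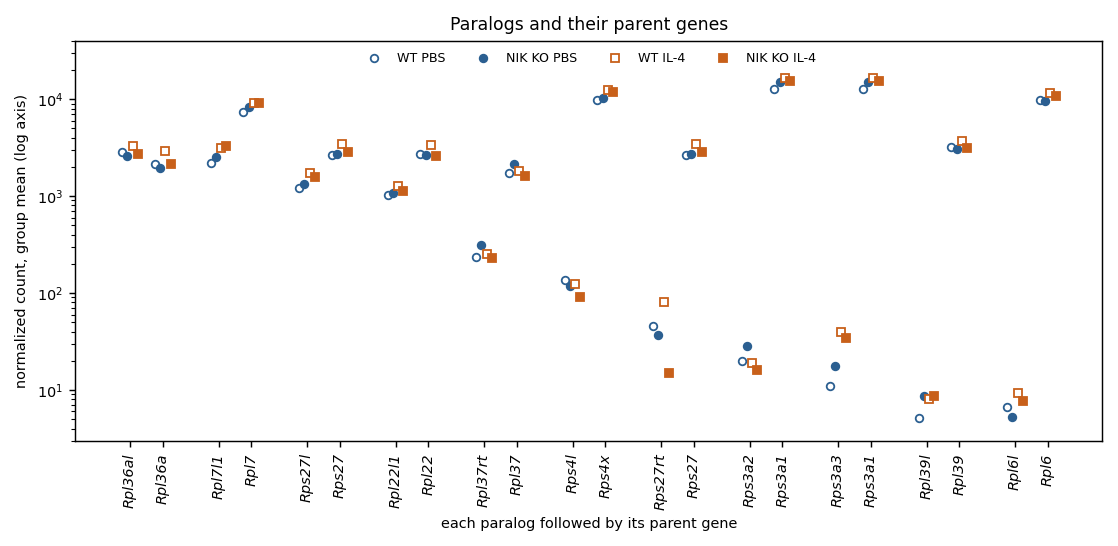
Recovered mean normalized counts (y axis, log scale) of each paralog followed by its parent gene, in WT and NIK KO with PBS and with IL-4. The 4 groups of a gene lie close together for the 6 paralogs of higher level, and the parents of the lowest paralogs lie far above them.

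Part of the family's signal was listed under copies. A row was taken as a copy if at least 50% of the 31-base words of its transcripts also occurred in those of a core gene. There were 198 such rows, 191 of them annotated as pseudogenes, and 63 of the 78 core genes had at least 1. Of the summed normalized counts of Rpl5 and its copies with PBS, 95.8% were listed under copies, mainly Gm15500 at 9322 counts in WT and 9992 in NIK KO, against 417 and 428 for Rpl5. Rpl5 binds 5S rRNA and, when free, Mdm2. For Rpl12 the share was 94.0%, mainly Gm10275 at 7719 and 7195 counts. The level of either gene alone may therefore not be that of its product, and the origin of the reads listed under copies was not tested. Summed with its copies, Rpl5 stood at -0.12 with IL-4 in place of 0.11, and all 78 core genes were then below 0, with a median of -0.17.

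For Rpl10, which is added late to the large subunit and is needed to release an assembly factor from it, the split between gene and copies differed between tables. With PBS 61.2% of the summed counts were listed under copies and with IL-4 36.3%. Rpl10-ps3 had 7276 counts in WT and 8167 in NIK KO with PBS and 5457 and 5264 with IL-4, while Rpl10 itself had 5423 and 4438 with PBS and 9821 and 9160 with IL-4. The tables were normalized separately, and the shares do not depend on that. With PBS Rpl10 alone stood at -0.29 ± 0.26 in the authors' deposited table and the sum of Rpl10 and its copies at -0.01.

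Rpl27a (53.5% with PBS and 50.3% with IL-4, under Gm7536), Rps23 (46.4% and 38.9%, under Rps23-ps1), Rpl31 (40.9% and 31.2%, under Rpl31-ps8) and Rpl15 (26.1% and 10.5%, under Rpl15-ps3) followed. In 12 families the copies held over 10% in at least 1 table. With PBS the copies' share was higher in NIK KO than in WT in 11 of the 12, and with IL-4 in 7 of the 12. Examples with PBS are Rpl10 at 57.4% in WT and 65.0% in NIK KO, Rpl36a at 12.7% and 23.0%, Rpl28 at 8.30% and 17.2%, and Rpl31 at 38.0% and 44.0%. With IL-4 the same families stood at 35.9% and 36.7%, 12.4% and 15.9%, 5.28% and 6.56%, and 31.7% and 30.6%. Rpl36a-ps2 with PBS had 315 and 584 counts, or 0.89 ± 0.29 (authors' deposited table, adjusted p = 1.00 by the DESeq2 Wald test). The 12 copies with a base mean of 100 or more in both tables had a median fold change of 0.17 with PBS, 11 of 12 above 0, and of -0.17 with IL-4, 2 of 12 above 0. The SD between core genes with PBS went from 0.16 for the genes alone to 0.15 for the sums.

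**Figure D5:**
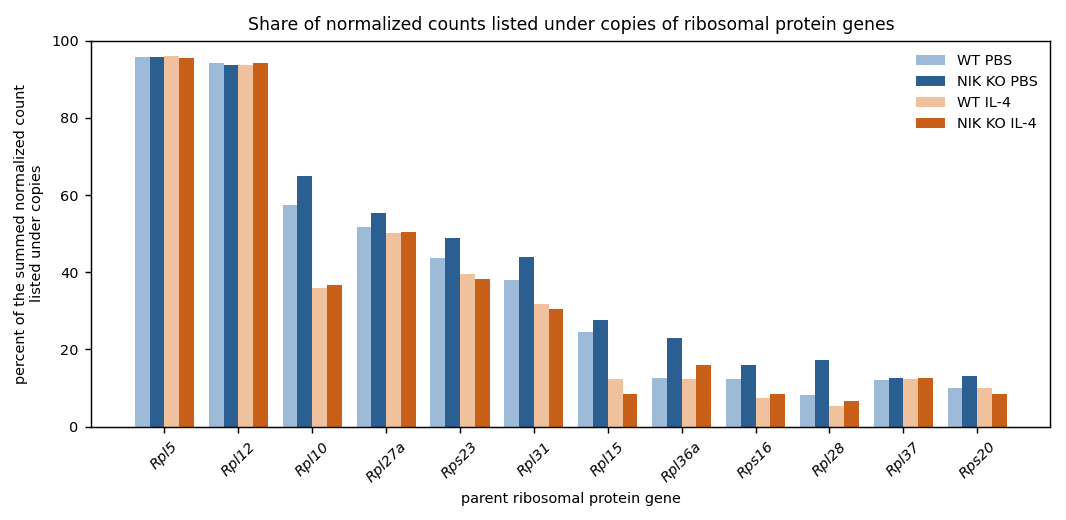
Percent of the summed normalized counts of a ribosomal protein gene and its copies that was listed under the copies (y axis), for the 12 families with over 10% in at least 1 table, in the 4 groups. Rpl5 and Rpl12 are listed almost wholly under copies, and in each of the other 10 families the NIK KO bar with PBS is the highest of the 4.

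Of rows named -ps for a member, 1 of 80 passed the test with PBS, against 0.0366% of all genes. With IL-4 1 of 76 passed, against 0.125% of the genes that had an adjusted p. With IL-4 this was Rpl14-ps1, with 155 counts in WT and 34.1 in NIK KO, or -2.19 ± 0.52 (authors' deposited table, adjusted p = 0.0286 by the DESeq2 Wald test), and with PBS it stood at -0.97 ± 0.44 (adjusted p = 1.00). Rpl14 itself stood at -0.25 ± 0.28 with PBS and -0.09 ± 0.17 with IL-4. With PBS it was Rpl10a-ps1, listed near 0 in WT and at 498 counts in NIK KO. Its log2 fold change was 24.2 ± 4.78 (authors' deposited table, adjusted p = 0.00152 by the DESeq2 Wald test). Whether both NIK KO libraries held these counts could not be seen, and Rpl10a-ps1 had no row with IL-4. Core genes with over 75% of their own words in other genes (31) had medians of -0.07 with PBS and -0.18 with IL-4. The 5 with under 25%, among them Rps3, Rpl8, Rps20 and Rpl39, had medians of 0.05 and -0.13, with 5 of 5 below 0 with IL-4. Among genes that share little sequence the IL-4 values were thus on the same side of 0.

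Lists of genes that act on the same pathway had medians near 0. Of 19 elongation factors and other mRNAs known for a terminal pyrimidine tract, 0 passed the test in either table, and the medians were 0.00 with PBS and -0.01 with IL-4, with 10 of 19 below 0 with IL-4. At an unadjusted p under 0.05 there were 0 of 19 with PBS and 1 of 19 with IL-4, a lower one. Among the lower with IL-4 were Naca, a chaperone of nascent chains, at -0.26 ± 0.17 and Eef1b2 at -0.19 ± 0.16 in the authors' deposited table. Eef1a1, the most abundant, stood at 0.07 ± 0.15, Eef2, which moves the ribosome along the mRNA, at 0.10 ± 0.15 and Tpt1 at -0.05 ± 0.17. Eef1b2 and Tpt1 were at 0.36 ± 0.28 and 0.25 ± 0.29 with PBS. The 23 initiation factors had medians of 0.03 and 0.03, with 0 passing and 10 of 23 below 0 in each table. Eif5b, which joins the subunits, stood at 0.27 ± 0.16 with IL-4 in the authors' deposited table, and Eif6, which keeps the large subunit apart until it is mature, at 0.32 ± 0.25 with PBS.

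Of 76 ribosome assembly genes found, 0 passed, with medians of -0.06 with PBS and -0.04 with IL-4 and 49 and 48 below 0. Dkc1, the pseudouridine synthase of the H/ACA particles, had an IL-4 value of 0.57 ± 0.23 (authors' deposited table, unadjusted p = 0.0137, adjusted p = 1.00 by the DESeq2 Wald test), the only one with an unadjusted p under 0.05 in either table. Pes1, an early factor of the large subunit, stood at -0.43 ± 0.30 with PBS and Utp20 at -0.41 ± 0.28 with PBS and 0.40 ± 0.23 with IL-4. The 31 subunits and factors of RNA polymerases I and III that were found had medians of -0.07 and 0.01, with 0 passing. Of 20 genes of mTORC1 and Myc control, 0 passed, with medians of -0.04 and 0.07. Among them Larp1, which binds the pyrimidine tract, stood at 0.22 ± 0.17 with IL-4, Eif4ebp2 at 0.37 ± 0.20, and Rps6kb1, the kinase of Rps6, at -0.37 ± 0.28 with PBS in the authors' deposited table. The 22 chaperones and quality control genes of ribosomal proteins had medians of 0.08 and 0.01, with 0 passing.

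Markers of other cells were low, and those of stroma and red cells had smaller sums in NIK KO than in WT with IL-4. The 9 fibroblast markers found with PBS summed to 241 counts in WT and 218 in NIK KO, and the 10 found with IL-4 to 1046 and 461. With IL-4 9 of 10 were below 0, with a median of -1.51, and Col3a1 passed (-2.34 ± 0.53 as the authors' deposited table gives it, with a DESeq2 adjusted p = 0.0107). Thy1 had no row. The 5 and 6 erythroid markers found of 11 summed to 96.1 and 103 with PBS and to 344 and 158 with IL-4, where 4 of 6 were below 0 and the median was -0.999. Epor, Ahsp and Car1 had no row. B cell markers summed to 79.7 and 127 with PBS and to 125 and 112 with IL-4, with no row for Ms4a1. T and NK cell markers summed to 32.5 and 36.3 and to 34.0 and 41.7, with no row for Cd3e, and neutrophil markers to 231 and 205 and to 292 and 213, with no row for Ly6g. Dendritic cell markers summed to 365 and 355 and to 1902 and 1823. Mast cell, basophil and megakaryocyte markers summed to 740 and 878 and to 952 and 1087, mainly Pf4. Macrophage markers had medians of -0.00 with PBS and 0.09 with IL-4, with 0 of 14 passing. The 3 B cell, 6 neutrophil and 7 dendritic cell markers found had IL-4 medians of -0.67, -0.26 and -0.05. The 2 T and NK cell markers had a median of 0.06, and the 4 of mast cells, basophils and megakaryocytes 0.17. With IL-4 the medians of the stromal and red cell markers and of the shortest genes were below 0, as was that of the ribosomal protein genes. The deposited values do not show whether these follow one another across samples. The part of other cell types in the ribosomal protein values was not tested. A smaller share of a cell type cannot be told apart from less RNA per cell.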

How the data were processed

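RNA of 8 libraries was measured (4 groups of 2), and the submitters' processing notes name Salmon 1.4.0, DESeq2 1.32.0 and the build GRCm39, with no role or order. The deposited tables hold, per the file headers, a base mean (a signal, the mean of normalized counts over a table's libraries), a log2 fold change with its standard error, a Wald statistic (a score, their ratio) and a p-value with its adjusted form. No label or header states the settings, annotation or filters used, and the total counts per library are unknown.

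The tables were read with Python 3.11.15, numpy 2.4.6, pandas 2.3.3 and scipy 1.17.1, and figures were drawn with matplotlib 3.10.9. Recovered group means are 2 × base mean / (1 + 2 to the power of the fold change) for WT and the rest for NIK KO. The difference between treatments was tested with a normal test, which was tested on simulated data. The simulated errors were independent and the simulated shifts larger than the members' median difference, while the same mice stand behind both tables. Transcript lengths, GC content and shared 31-base words come from GENCODE M21 (GRCm38), matched by gene ID for 90 of 90 members, 13652 genes of the PBS table and 14167 of the IL-4 table. Its coordinates were not mixed with those of the files. Trends on length and base mean were lowess fits with a span of 0.3.

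The members and lists were chosen with earlier results of these data known. Named genes are the 10 members with the largest Wald statistic in each table and in the difference, the 5 highest and lowest per kb, paralogs with their parents, the stalk, fusion and laminin receptor genes, Rps19bp1, and of other lists those that passed and otherwise the largest 3 in each table. Some genes that this rule names are not reported here. The other named genes (Rpl27 and Rpl10 in the difference, Rps3, Rack1, the X-linked genes, the copies and further list members) were chosen after their values were seen. Alternatives changed the threshold (0.1), the reference distribution (t with 2 degrees of freedom), the filter (base mean of 100), the scaling, the trends, the members, the correlation of errors (0.5) and the denominators of shares. Whether the 2 libraries of a group came from separate cultures beyond the mouse number is not stated, and the p-values measure the spread between these libraries only.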

Additional observations from a re-analysis of the deposited data

How the results depend on the processing

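The count of members that passed stayed 0 in both tables and for the difference under an adjusted p of 0.1, under a base mean of at least 100, and under a t distribution with 2 degrees of freedom (tables) or errors correlated at 0.5 (difference). The PBS median ran from -0.07 with the base mean trend subtracted to 0.04 without members of over 50% shared words. The IL-4 median ran from -0.21 with the base mean trend subtracted to -0.03 with the length trend subtracted, and over the other 6 alternatives from -0.20 to -0.17. Sums with copies, added after the data had been seen, gave -0.00 and -0.17. The difference of medians between large and small subunit was -0.06 in each setting with PBS and between -0.00 and 0.02 with IL-4. The shares of normalized counts in WT and NIK KO with PBS, then WT and NIK KO with IL-4, were 3.57%, 3.49%, 3.54% and 3.10% without paralogs and Rps19bp1. Over genes in both tables without mitochondrial genes they were 3.70%, 3.61%, 3.67% and 3.21%, and with -ps copies added 3.75%, 3.69%, 3.69% and 3.23%. NIK KO stayed below WT within each treatment in all 3. No paired analysis was possible because WT and NIK KO mice carry different numbers and the deposited tables hold 1 value per gene. Leaving out each replicate could not be run for the same reason. The 5 paralogs under a base mean of 100 had standard errors from 0.64 to 4.57, the largest for Rps27rt, and since the depth of the libraries is unknown the part of depth in them was not tested.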
